A study of Mus musculus with 3 samples.

Results

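The distal segment of mouse chromosome 5, from position 112000001 to the chromosome end at 152537259 on mm9, held 898 of the 15011 c-FOS peaks in 1 deposited list. Its members are the listed peaks on chromosome 5 that start within it, and the 732 peaks of the same chromosome that start before it (the rest of chromosome 5) served for comparison. The segment was picked from an earlier reading of this list, for its many peaks and for its widest ones. Density, width and spacing are therefore given as descriptions, with no test. Cytogenetic bands did not enter the choice, but the densities given by band count the same peaks that did.

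The list came from chromatin immunoprecipitation followed by sequencing (ChIP-seq) in ASZ001, an established cell line from a mouse basal cell carcinoma. The study asked where c-FOS binds during an induced change from basal to squamous cell carcinoma. There were 2 c-FOS ChIP samples and 1 input sample without antibody. All 3 carried RasV12, an activated Ras, together with an shRNA that knocks down the TGF-beta receptor TGFbR1, all were treated with Dox and 4OHT, and all were collected on day 6 after induction. No uninduced group was analysed here. The authors' list names no replicate and gives no score, so no value below has a replicate error, and the depth behind a peak is unknown. The 95% intervals reflect counting error alone and assume independent peaks, although neighbouring peaks share chromatin.

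c-FOS is a subunit of AP-1, a transcription factor made of a FOS and a JUN protein that binds the DNA motif TGANTCA, mostly in enhancers and promoters. In skin, AP-1 takes part in keratinocyte differentiation, in wound and stress responses and in the growth of squamous tumours. Mouse chromosomes have their centromere at one end, so distal means toward the far telomere. Under Giemsa stain they show light bands, which tend to be rich in genes and in early-replicating, open chromatin, and dark bands, which tend to be poor in genes.

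c-FOS peaks were far more crowded on distal chromosome 5 than on the rest of the chromosome. The segment measured 40.5 Mb and carried 22.2 peaks per Mb, against 6.54 peaks per Mb on the rest of chromosome 5, a ratio of 3.39 (95% interval 3.07 to 3.74). It held 55.1% of the peaks on 26.6% of the chromosome's length, and 5.98% of the whole list on 1.53% of mm9. Listed peaks covered 0.434% of the distal sequence and 0.124% of the rest of chromosome 5. The rest of chromosome 5 lay near the genome at large, at 1.14 times the 5.75 peaks per Mb of the other autosomes (1.05 to 1.22).

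The boundary did not fall on a step in the data. The first peaks inside it were at chr5:112088003-112088149 (147 bp wide), chr5:112263582-112263930 (349 bp) and chr5:112291754-112291913 (160 bp). The last peaks outside it were at chr5:111759566-111759760 (195 bp), chr5:111993308-111993427 (120 bp) and chr5:111999834-112000216 (383 bp), the last of which spans the boundary and was counted by its start. The first distal window of 1 Mb held 17 peaks, and the window just before it held 20.

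Every one of the 41 distal windows of 1 Mb held at least 1 peak, while 23 windows on the rest of chromosome 5 held none. These 23 include the windows at the chromosome start, where no peak was listed up to position 3152518. Assembly gaps were not left out of the windows. The counts ran from 1 to 57 with a median of 21 in distal windows, and from 0 to 37 with a median of 3 in the other windows. A count of at least 20 was reached in 22 distal windows (53.7%) and in 8 of the others (7.14%). Without the 10 fullest windows of each part, the mean was 14.8 peaks per distal window. It was 4.77 peaks per window on the rest of chromosome 5. The windows left out held 49.0% of distal peaks and 33.5% of the peaks on the rest of chromosome 5. They are a larger part of the distal segment, which has fewer windows. The segment was picked for its many peaks, so these means describe the counts and do not test the difference.

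**Figure D1:**
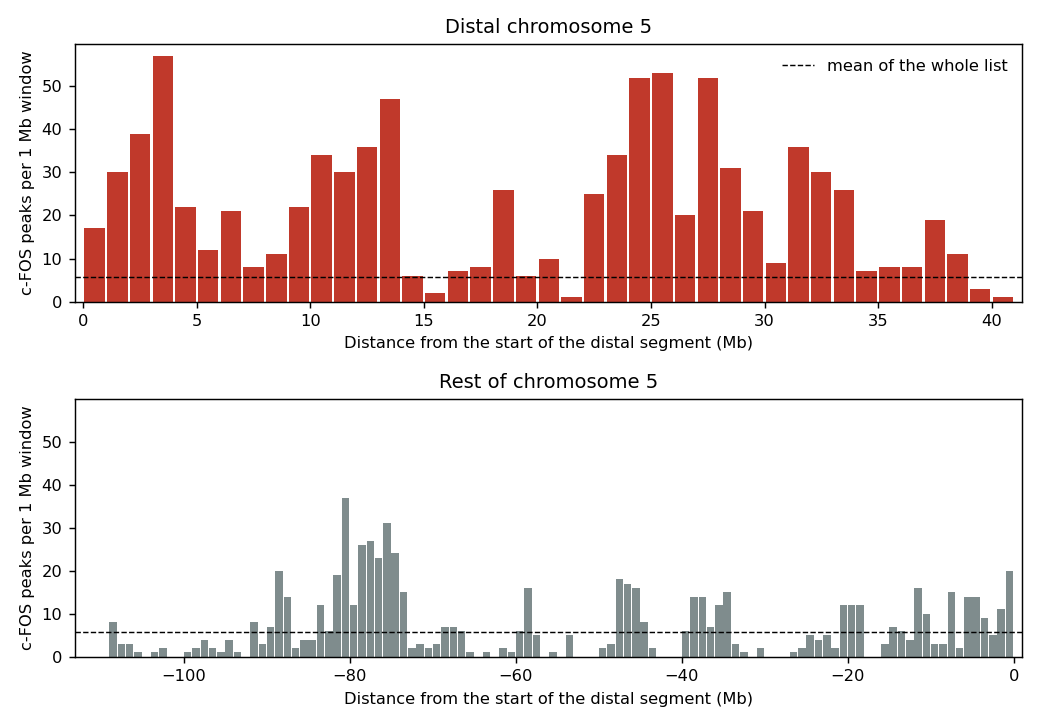
c-FOS peaks per window of 1 Mb (vertical axes) against the distance from the start of the distal segment in Mb, for the distal segment above and the rest of chromosome 5 below; the dashed line is the mean of the whole list, 5.65 peaks per Mb. Distal windows hold up to 57 peaks in 4 broad mounds, and the fullest window of the rest holds 37.

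Within the segment, peaks gathered in 4 broad blocks, taken as runs of 3 or more neighbouring windows with at least 20 peaks each. This definition was made after the counts were seen. The first block, from 113000001 to 117000000, held 148 peaks, or 37.0 per Mb. The second, from 121000001 to 126000000, held 169 peaks at 33.8 per Mb. The longest, from 134000001 to 142000000, held 288 peaks at 36.0 per Mb, and the last, from 143000001 to 146000000, held 92 peaks at 30.7 per Mb. The 4 blocks took up 49.3% of the segment and carried 77.6% of its peaks. The 20.5 Mb between and beyond them carried 201 peaks, or 9.79 per Mb, still above the mean of the rest of chromosome 5.

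The 5 fullest distal windows lay in the first 3 blocks. The highest count, 57 peaks, was in the window from 115000001 to 116000000. Then came 53 peaks from 137000001 to 138000000, 52 each in the windows starting at 136000001 and at 139000001, and 47 from 125000001 to 126000000. Together they carried 261 peaks, 29.1% of the distal total. Each of these 5 counts was above the fullest window of the rest of chromosome 5, which ran from 31000001 to 32000000. Median widths in these 5 windows were between 160 and 174 bp.

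Peaks were scarce at a few distal positions. The windows from 133000001 to 134000000 and from 152000001 to the chromosome end, which is a partial window, held 1 peak each, and the window from 127000001 to 128000000 held 2. The longest distal stretch without a peak measured 1.64 Mb (132360390 to 133997592). The next were 0.876 Mb (126642127 to 127517887) and 0.844 Mb (150481327 to 151325035). Elsewhere on the chromosome the 3 longest empty stretches between peaks measured 4.18, 4.14 and 3.70 Mb.

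Most distal peaks, 765 of 898, lay in light cytogenetic bands, and the density is given here by stain class. Of the distal sequence 73.8% lies in light bands, against 37.1% of the rest of chromosome 5, and no distal band belongs to the 2 darkest stain classes, which make up 43.5% of the rest. Distal light bands carried 25.6 peaks per Mb, against 8.16 in light bands of the rest, a ratio of 3.13 (2.75 to 3.57). In the palest grey class the distal bands carried 12.5 peaks per Mb, against 7.37 in the rest, a ratio of 1.70 (1.34 to 2.15). Giving the rest of chromosome 5 the distal mix of stain classes would raise it to 7.95 peaks per Mb, and the distal segment stood at 2.78 times that value. The segment was picked for its many peaks, so high ratios within stain classes belong to that choice as well. The part of band make-up in the density was not tested.

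The single bands varied widely within a class. Among distal light bands, qG2 (131297894 to 146744704) had 413 peaks at 26.7 per Mb and the distal part of qF (112000001 to 125505339) had 346 peaks at 25.6 per Mb, whereas qG1.2 (127436192 to 128401616) had 6 peaks at 6.21 per Mb. Among the pale grey bands, qG1.1 had 23.8 peaks per Mb, qG1.3 12.8 and the telomeric band qG3 8.63. The part of qF that precedes the boundary, in the rest of chromosome 5, had 11.6 peaks per Mb. The densest single band of the chromosome was none of the distal ones: it was qB2 (33789900 to 35720750), a short pale grey band with 56 peaks at 29.0 per Mb. Band limits come from stained chromosomes and are approximate on the sequence.

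**Figure D2:**
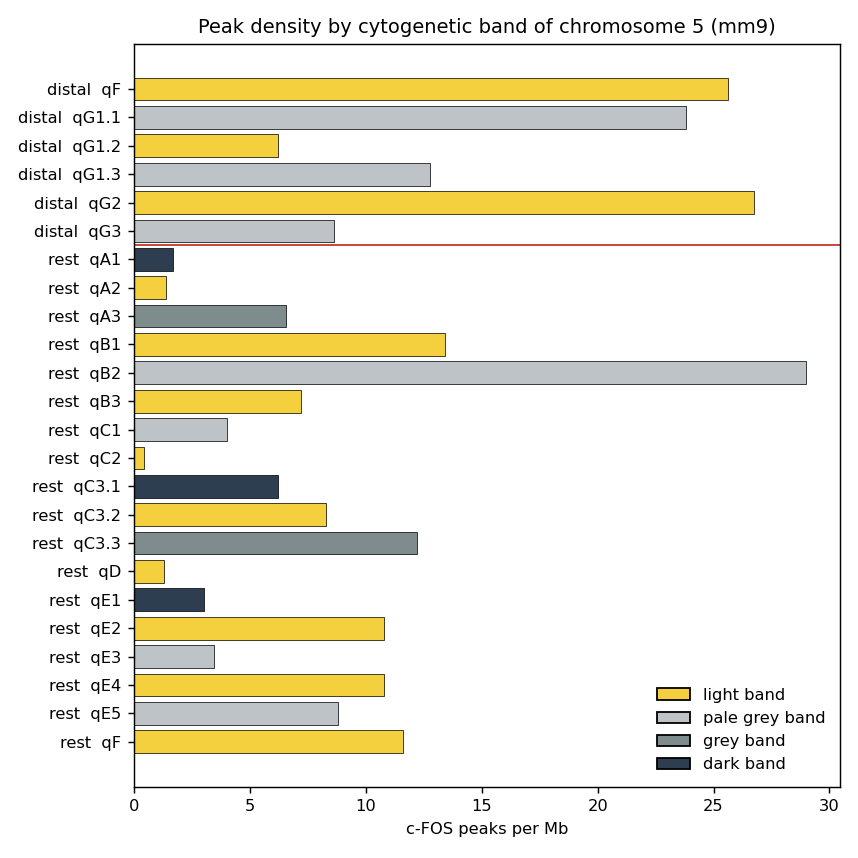
c-FOS peaks per Mb (horizontal axis) in each cytogenetic band of chromosome 5, with the distal bands above the red line and the bands of the rest of chromosome 5 under it; bar colour gives the stain class. The distal light bands qF and qG2 stand at 25.6 and 26.7 peaks per Mb, and the pale grey qB2 of the rest of chromosome 5 at 29.0.

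The typical distal peak was no wider than a typical peak elsewhere. Distal widths had a median of 157 bp with quartiles of 118 and 228 bp, against a median of 161.5 bp with quartiles of 117 and 226 bp on the rest of chromosome 5. The share at the narrowest listed width, 98 bp, was 9.80% among distal peaks and 9.97% on the rest of chromosome 5. The values lay further apart at the wide end, where the 95th percentile was 411 bp for distal peaks and 374 bp for the rest. On the other autosomes the median was 158 bp and the 95th percentile 385 bp. Peaks over 300 bp made up 14.1% of distal peaks, 12.4% on the rest of chromosome 5 and 11.6% on the other autosomes. The distal share lay 1.71 percentage points (-1.64 to 4.99) above the rest of chromosome 5. It lay 2.58 points (0.382 to 5.07) above the other autosomes. The segment was picked in part for its widest peaks, so the values at the wide end describe that choice and do not test it.

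Of the 898 distal peaks 20 were wider than 500 bp, or 2.23% (Wilson 95% interval 1.45 to 3.42%), against 13 of 732 on the rest of chromosome 5, or 1.78% (1.04 to 3.01%). The shares differed by 0.451 percentage points (-1.01 to 1.85). Of all 263 peaks over 500 bp in the list, 7.60% were distal (4.98 to 11.5%), beside 5.98% of all peaks. Above 1000 bp the distal segment, picked in part for its widest peaks, held 4 of the 10 peaks in the list. The rest of chromosome 5 held 1. The widest peak of the whole list, at 2729 bp, was not on chromosome 5.

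**Figure D3:**
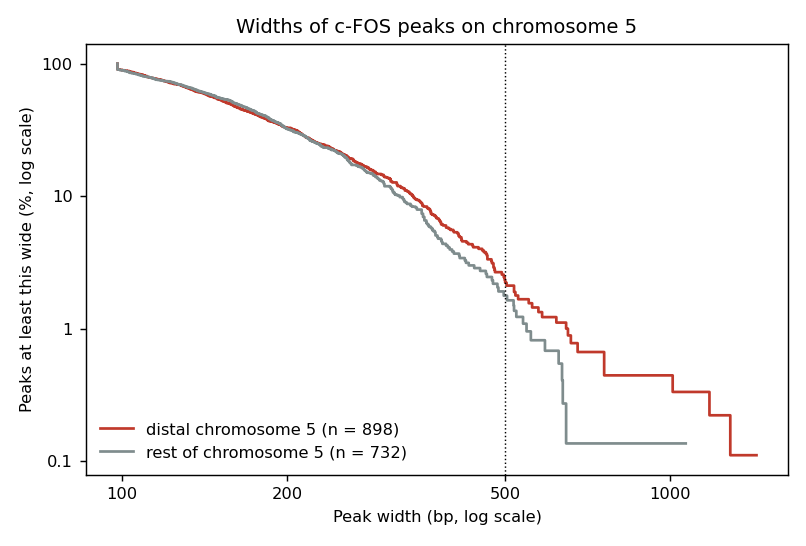
Share of peaks at least as wide as the value on the horizontal axis (both axes on a log scale, widths in bp), for the 898 distal peaks and the 732 peaks of the rest of chromosome 5; the dotted line marks 500 bp. The curves run together up to about the 90th percentile and separate among the widest few percent.

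Distal widths broke off between 4 peaks and the others. The widest 4 measured 1438 bp at chr5:143578204-143579641, 1288 bp at chr5:115939245-115940532, 1180 bp at chr5:113566962-113568141 and 1011 bp at chr5:125869462-125870472. These ranked 2, 3, 4 and 10 in the whole list. Then came a pair of 758 bp at chr5:143576432-143577189 and chr5:143582857-143583614, both next to the widest. The remaining 4 of the 10 widest measured 678 bp (chr5:143584982-143585659), 659 bp (chr5:138186962-138187620), 651 bp (chr5:124545726-124546376) and 646 bp (chr5:118909026-118909671). On the rest of chromosome 5 the widest peak, at chr5:32437267-32438334, measured 1068 bp and the next 646 bp.

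Many of the wide distal peaks had close neighbours. Another peak lay within 1 kb of 11 of the 20 (55.0%, Wilson interval 34.2 to 74.2%), against 236 of the 878 narrower distal peaks (26.9%). Of these 11, 5 came from the neighbourhood of the widest peak described next, and without it the counts were 6 of 15 (40.0%) and 220 of 853 (25.8%). Within 10 kb the counts were 15 of 20 (interval 53.1 to 88.8%) and 511 of 878 (58.2%). The wide peak at 115939245 had a partner 146 bp away and that at 113566962 one 104 bp away, while that at 125869462 stood 2910 bp from its neighbour. The number of other peaks within 100 kb hardly separated the kinds, with a median of 9 around wide peaks and of 8 around narrower ones. Of the 20, 17 lay in light bands, which held 85.2% of distal peaks. Neighbours of wide peaks outside the segment are not given here, so these values do not show a trait particular to it.

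One neighbourhood, around the widest distal peak, held 5 of the 20 wide peaks. Within 200 kb on either side of that peak's centre 30 peaks were listed, and its 5 wide ones spanned 91.4 kb. The first group of close peaks there, chr5:143575880-143579641, had 5 peaks of 476, 758, 160, 162 and 1438 bp, which filled 79.6% of its 3762 bp. A second group of 6 peaks, chr5:143581903-143585659, followed after it, with widths of 216, 169, 758, 129, 109 and 678 bp, and was filled to 54.8%. Another group, at chr5:143667283-143670021, had 4 peaks with a widest of 575 bp, and the last, at chr5:143722680-143726063, had 4 peaks of 154, 368, 360 and 212 bp. This neighbourhood was singled out after its values were seen. Without its 30 peaks, 15 of 868 distal peaks (1.73%) were wider than 500 bp, beside 1.78% on the rest of chromosome 5. The difference was -0.0478 percentage points (-1.46 to 1.28). Leaving out a stretch picked for its wide peaks lowers the distal share by itself, and nothing was left out of the rest of chromosome 5.

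**Figure D4:**
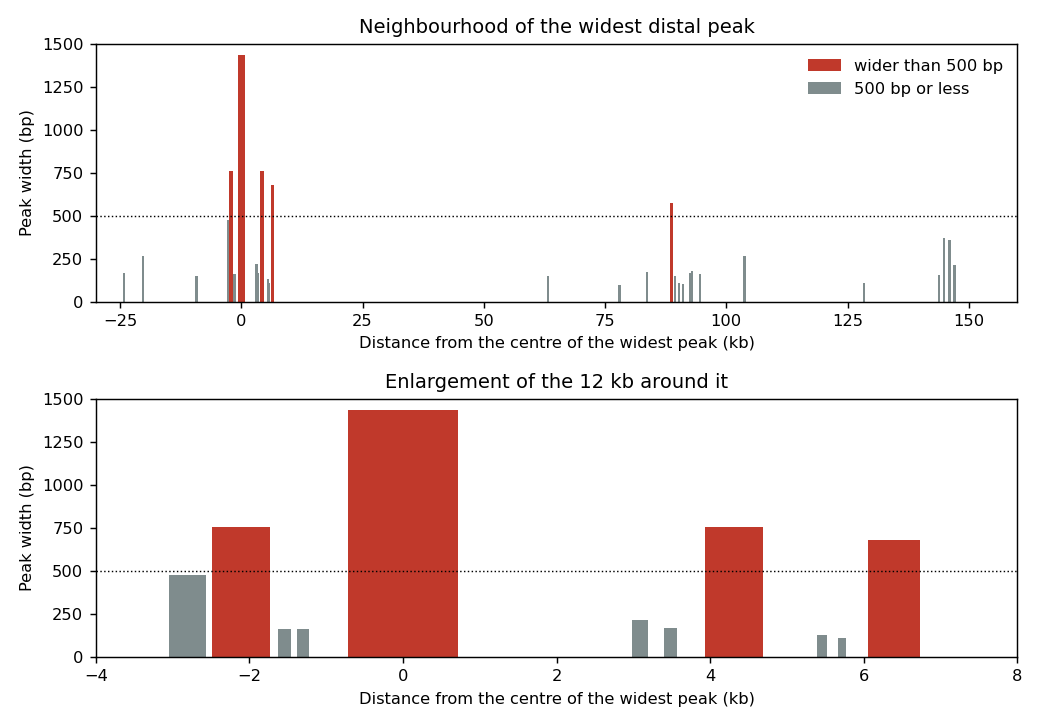
Width in bp of each peak (vertical axes) against its distance in kb from the centre of the widest distal peak, with the whole neighbourhood above and the closest part enlarged underneath; red bars are wider than 500 bp. Of the 5 red bars 4 stand in 2 adjoining groups, and the fifth, 575 bp wide, is 88.6 kb away.

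Spacing is described here beside the density that chose the segment, since more peaks per Mb bring shorter gaps by themselves. A neighbour within 1 kb was found for 247 distal peaks (27.5%, Wilson interval 24.7 to 30.5%) and for 184 peaks of the rest of chromosome 5 (25.1%, 22.1 to 28.4%). The shares differed by 2.37 percentage points (-1.95 to 6.63). Linking peaks with gaps of at most 1 kb left 756 distal regions, of which 651 were single peaks, 85 were pairs and 20 were groups of 3 or more. On the rest of chromosome 5 it left 628 regions, with 548 single peaks, 62 pairs and 18 such groups. Groups of 3 or more thus took 8.57% of distal peaks and 8.20% of the others.

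At longer range the values lay further apart. A neighbour within 10 kb was found for 58.6% of distal peaks and for 44.0% of the peaks on the rest of chromosome 5, a difference of 14.6 percentage points (9.72 to 19.4). Of the distal gaps between neighbours 23.2% measured between 1 and 10 kb, against 12.3% on the rest of chromosome 5. Gaps over 100 kb made up 11.4% of distal gaps and 29.1% of the others. The median gap was 17.8 kb in the distal segment and 43.9 kb on the rest of chromosome 5. Peaks more than 100 kb from any other numbered 35 in the distal segment (3.90%) and 85 on the rest of chromosome 5 (11.6%).

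The largest distal groups were short, and they differed in the widths of their peaks. The fullest, chr5:139468916-139472246, had 7 peaks of 110 to 318 bp within 3331 bp, with gaps of 96 to 749 bp. Another group of 5 peaks, chr5:139463834-139465884, ended 3031 bp before it, so that 12 peaks lay within 8413 bp, and not one was wider than 327 bp. The group at chr5:123585473-123588838 had 5 peaks of 133 to 519 bp. With the groups of 6 and 5 around the widest peak, these were the 5 fullest. The widest peaks of those 2 groups measured 758 and 1438 bp, and their median widths were 192.5 and 476 bp. In the distal segment peaks with a neighbour within 1 kb had a median of 176 bp in width, and those without one 151 bp, and on the rest of chromosome 5 the medians were 183.5 and 157 bp.

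Widths also varied from window to window. Over the 37 distal windows with at least 5 peaks, the median width ran from 117 to 331 bp, and its Pearson correlation with the number of peaks was -0.01 (Spearman's rho 0.24), given as a description of windows that share the same libraries. Peaks over 500 bp occurred in 13 of the 41 windows.

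The density was also set beside the ends of the other autosomes. Single stretches away from those ends were not counted here, so the order holds for ends alone. When the last 40.5 Mb of each of the 19 autosomes were counted, chromosome 5 had 22.2 peaks per Mb and came second. Chromosome 11 had 25.4 and chromosome 8 had 15.5, and the median over the 19 was 6.22, with a lowest value of 0.444 on chromosome 14. The distal chromosome 5 density was 0.873 times that of chromosome 11 (0.797 to 0.955). Peaks over 500 bp numbered 20 on chromosome 5, 17 on chromosome 11 and 14 on chromosome 2. As a share of each end's peaks they made up 2.23% on chromosome 5. That was below chromosomes 17 (3.32%), 6 (2.64%) and 2 (2.40%) and above chromosome 11 (1.65%). The part of peak number in these counts was not tested. Chromosome 5 had 4 peaks over 1000 bp, and no other end of an autosome had more than 1. The segment was picked in part for its widest peaks, so this lead belongs to the choice. Median widths were 157 bp on both chromosome 5 and chromosome 11. Neighbours within 10 kb were found for 58.6% of the peaks on distal chromosome 5 and for 67.3% on the last part of chromosome 11.

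**Figure D5:**
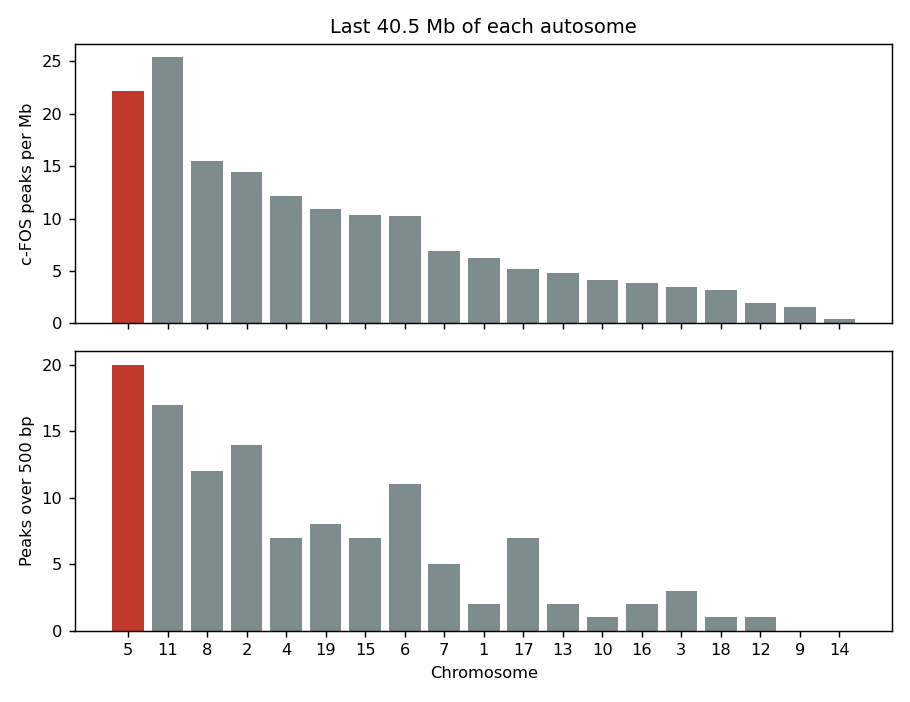
c-FOS peaks per Mb (above) and number of peaks wider than 500 bp (underneath) in the last 40.5 Mb of each of the 19 autosomes, with chromosome 5 in red at the left and the others in order of density. Chromosome 5 stands at 22.2 peaks per Mb and 20 wide peaks (2.23% of its peaks), and chromosome 11 at 25.4 peaks per Mb and 17 wide peaks (1.65%). Shares of wide peaks were larger on chromosomes 17 (3.32%), 6 (2.64%) and 2 (2.40%).

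Peaks were not joined to genes, since the gene table at hand is on GRCm38 and the peaks are on mm9. That table names on chromosome 5 all 28 genes listed for this segment with earlier results known. They include Actb (beta-actin), Rac1 (a small GTPase that drives actin assembly) and Cldn4 (a tight-junction claudin of epithelia). Whether any of them lies within the segment or beside a listed peak was not analysed here.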

How the data were processed

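Per the submitters' processing notes, the authors used Bowtie2 for alignment on mm9 and MACS2 for peak calling. Their versions, the peak threshold, the role of the input and the pooling of both ChIP samples were not given in the sources used here. Deposited values are peak coordinates (chromosome, start and end) in 1 list. All peaks fitted within mm9 chromosome lengths and none overlapped. Coordinates are printed 1-based.

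Widths, gaps, windows of 1 Mb and groups linked by gaps of at most 1 kb were computed with scipy 1.17.1, pandas 2.3.3 and numpy 2.4.6 under Python 3.11.15, and figures drawn with matplotlib 3.10.9. Chromosome lengths came from GenomeInfoDb 1.38.1 and mm9 bands from circlize 0.4.16 (R 4.3.3), and peaks were put in bands by their start. Lengths include assembly gaps. Shares carry Wilson intervals, differences Newcombe intervals and density ratios exact binomial intervals. The density ratio, the linking of close peaks and the gap to the nearest neighbour were checked on 20 simulated lists with randomly placed peaks. The other functions were not checked on them.

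The segment, lists and alternatives were chosen with earlier results of these data known. Named regions follow a rule: the 10 widest peaks, 5 fullest and 3 emptiest windows, 5 fullest groups, 3 longest gaps and 3 peaks on each side of the boundary. Motifs and peak sequences need an mm9 genome and were not analysed here.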

Additional observations from a re-analysis of the deposited data

How the results depend on the processing

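The ratio of peak density, distal over the rest of chromosome 5, was 3.39 as listed and between 2.81 and 3.85 under 8 alternatives. It was 2.81 with peaks within 10 kb merged and 3.85 with the other autosomes in place of the rest of chromosome 5; the cause was not tested beyond these constructions. Moving the boundary by 2 Mb either way, merging within 1000 bp, keeping wider peaks, leaving out the narrowest width, or starting at the first listed peak left it within its interval. The difference in the share over 500 bp turned from 0.451 to -0.0478 percentage points when the peaks within 200 kb of the widest distal peak were left out, an alternative chosen after seeing the data that removes peaks from the distal segment alone. It stayed within its interval under the 5 others. Under the same omission the share of wide distal peaks with a neighbour within 1 kb was 40.0%, against 55.0% as listed. The difference in peaks with a close neighbour was 14.6 percentage points at a reach of 10 kb, against 2.37 at 1 kb. More peaks per Mb bring more neighbours within reach by themselves, and the segment was picked for its many peaks. With peaks of 1 list, leaving out a replicate or a stricter threshold could not be tried, and the alternatives for motifs and promoters were not run. No paired analysis was possible because the list names no replicate. With no score or read total, depth cannot be set against the number or width of peaks.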

Other observations

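The last listed peak of chromosome 5, at chr5:152171067-152171686, was wide and alone. It measured 620 bp, its nearest neighbour was 694.7 kb away, and it lay 365.6 kb from the chromosome end. It was the only 1 of the 20 wide distal peaks with no other peak within 100 kb, and it ranked 100 by width in the whole list. Known artefact-prone regions were not removed, so it was not checked as a site of c-FOS binding.

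The window from 147000001 to 148000000 had the highest median width among the 37 distal windows with at least 5 peaks, with no peak over 500 bp. Its 8 peaks measured 328, 403, 178, 366, 285, 155, 334 and 373 bp, with a median of 331 bp. The distal median was 157 bp. This window was singled out after its values were seen.

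When peaks with gaps of at most 10 kb were linked, the fullest distal group had 14 peaks in 10.5 kb (chr5:139461701-139472246) and none wider than 327 bp. The next had 12 peaks in 16.1 kb around the widest peak (chr5:143569600-143585659). Another 10 peaks lay within 38.5 kb at chr5:125605551-125644031 and 10 within 25.9 kb at chr5:143656864-143682785.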
